A study of Mus musculus with 24 samples.

Results

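The genes described here encode the proteins of the cytosolic ribosome. They were taken from the deposited table by symbol alone: every symbol made of Rpl or Rps and a number, with or without a closing a, x, y or l, together with Rpsa, Rplp0, Rplp1 and Rplp2. This gave 85 of the 35974 symbols, 52 of the large subunit and 33 of the small subunit. Genes of the S6 kinases and symbols marked as pseudogenes were left out. The series holds 24 RNA-seq libraries from mouse liver, all of strain C3H/HeJ, and the title of the series is about polyploid hepatocytes in chronic liver disease. The genotype is WT (wild type) or TGA (transgenic), and the labels do not name the transgene, its promoter, the age of the mice or a treatment. Its title gives each library a number, 1 to 4, and ends in 2, 4 or 8; that ending is called class here and may stand for ploidy but is not explained in the labels. This gives 6 groups of 4 libraries: WT class 2, WT class 4, WT class 8, TGA class 2, TGA class 4 and TGA class 8. RNA was isolated with a kit meant for fixed tissue in paraffin blocks and was read in single reads of 75 bases. The labels do not say that libraries of a group are separate animals, so p-values measure only the spread between libraries.

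Each ribosome has a small subunit, which holds the mRNA and decodes it, and a large subunit, which joins the amino acids. The ribosomal proteins are needed in every growing cell, and in liver they support the synthesis of albumin and other plasma proteins. Their mRNAs typically begin with a C followed by a run of pyrimidines (C and T), the 5′ terminal oligopyrimidine tract, through which mTOR signalling and the RNA-binding protein Larp1 control their translation. The mammalian genome also carries many processed pseudogenes of these genes, copies without introns that resemble the mRNA closely.

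The start-site sequences below were picked from windows that hold a run of pyrimidines, in genes with and without a value in these libraries. They therefore do not show how common the run is in the family, which is given after them. In these windows the run need not begin at the annotated start. Each window is 30 bases long with the RefSeq start site at base 13, read 5′ to 3′ on the gene's strand of GRCm38.p6, and capitals mark the run of C and T. Rpl13a, Rplp2 and Rpl28 had values above 0 in 10, 9 and 8 of 24 libraries, and Rpl15, Rpl35, Rpl27a and Rpl38 were listed at 0 in all 24.
Rpl13a, chr7:45128728-45128757, minus strand: accctgcgacaagaCCTCCTCCTTTCCCag
Rplp2, chr7:141447639-141447668, plus strand: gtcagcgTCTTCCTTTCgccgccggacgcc
Rpl28, chr7:4792953-4792982, plus strand: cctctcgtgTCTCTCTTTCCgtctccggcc
Rpl15, chr14:18270969-18270998, minus strand: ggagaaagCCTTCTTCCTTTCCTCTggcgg
Rpl35, chr2:39005114-39005143, minus strand: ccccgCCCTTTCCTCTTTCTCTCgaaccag
Rpl27a, chr7:109519183-109519212, plus strand: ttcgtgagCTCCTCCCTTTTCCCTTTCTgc
Rpl38, chr11:114668568-114668597, plus strand: ggaagcctcgTTCTTTCCCCgttctcttcg
A run of at least 8 C or T, on the gene's own strand and lying within 5 bases before to 10 bases from the annotated start, was found in 21 of the 64 ribosomal protein genes with a start window in RefSeq (32.8%). The same run was found in 1439 of all 27025 genes with a start window in RefSeq (5.32%). Of the ribosomal protein genes listed at 0 everywhere, 5 of 14 had it (35.7%), and of those with a value in a library 16 of 50 had it (32.0%).

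The table holds the natural log of a normalised count plus 1, given here as log2. Of the 85 genes, 66 were above 0 in at least 1 library (77.6%, against 59.5% of all symbols), and 19 were listed at 0 in all 24. A 0 in this table does not show that the mRNA was absent, since these are, apart from the paralogs named next, genes that every cell uses. The 19 were Rpl3, Rpl15, Rpl24, Rpl26, Rpl27a, Rpl30, Rpl35, Rpl36a, Rpl37a, Rpl38, Rpl39, Rps23, Rps26, Rps28 and Rps29, the ubiquitin fusion gene Rps27a, and the paralogs Rpl10l, Rpl32l and Rps4l. Another 21 genes were above 0 in 1 to 3 libraries, 31 in 4 to 7 and 13 in 8 to 12. Rpsa, which encodes a small-subunit protein also known as the laminin receptor precursor, was above 0 in 17 libraries. Over all genes and libraries, 82.6% of the ribosomal protein values were listed at 0, against 87.4% of the values of the whole table.

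**Figure D1:**
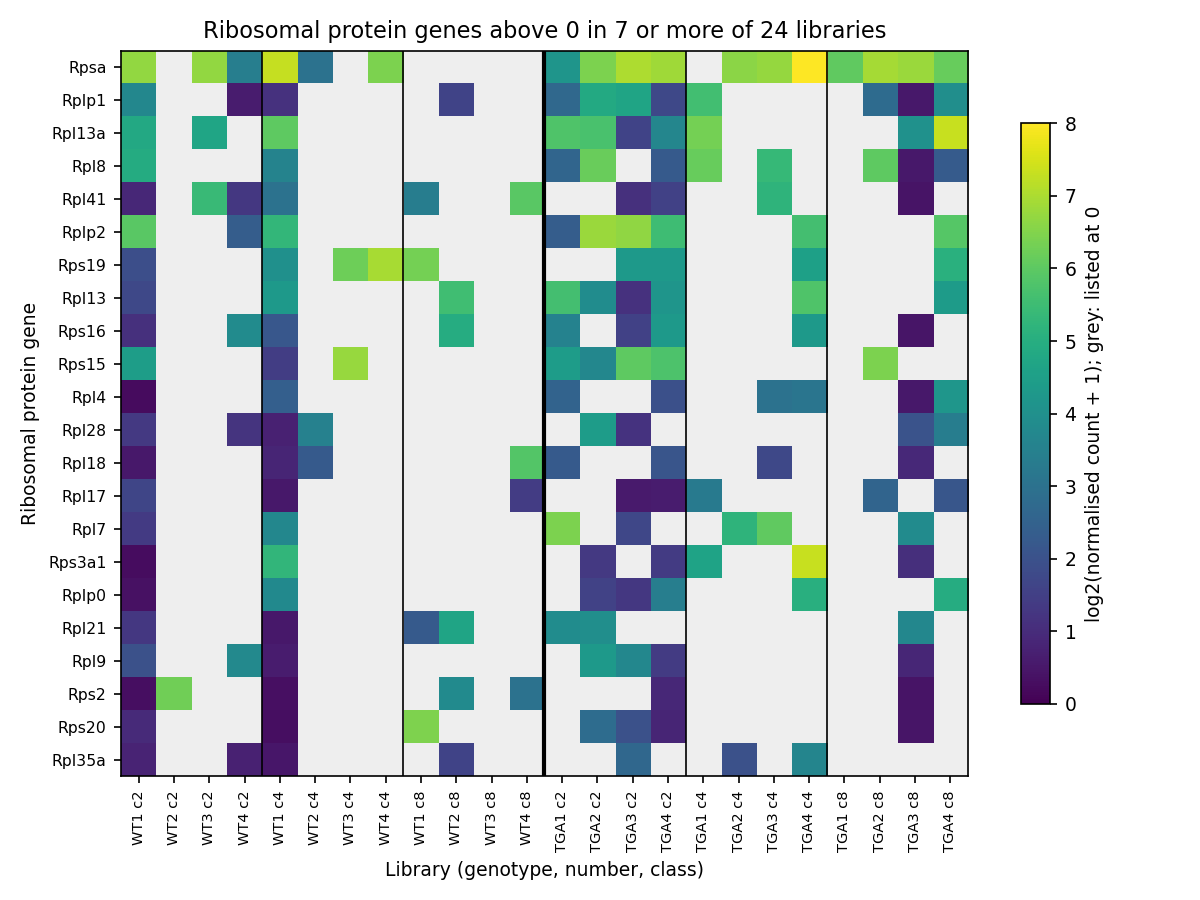
Values of the 22 ribosomal protein genes above 0 in 7 or more libraries, as log2(normalised count + 1), with genes in rows by falling number of libraries above 0 and the 24 libraries in columns (genotype, number and c for class); thin lines part the classes and the thick line the genotypes, and grey cells are listed at 0. The columns of WT number 1 in class 2 and class 4 are filled for every gene shown, many with low values, and the 4 columns of TGA class 2 are fuller than those of the other WT libraries.

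The number of ribosomal protein genes above 0 ranged from 2 to 55 per library. In WT class 2 it was 54, 2, 4 and 16 in numbers 1 to 4. In WT class 4 it was 55, 6, 4 and 2, and in WT class 8 it was 5, 7, 2 and 5. WT number 1 in class 2 and class 4 thus stood far above the other WT libraries, and 45 genes were above 0 in both. In TGA class 2 the number was 18, 22, 28 and 33, in TGA class 4 it was 7, 4, 10 and 10, and in TGA class 8 it was 6, 6, 33 and 16. The means over the 6 groups were 19.0 ± 24.1, 16.8 ± 25.6 and 4.75 ± 2.06 genes in WT class 2, 4 and 8, and 25.3 ± 6.60, 7.75 ± 2.87 and 15.3 ± 12.7 genes in TGA class 2, 4 and 8 (SD, n = 4 libraries each). TGA class 2 and TGA class 4 did not overlap, and the WT classes overlapped. The mean log2 level over all 85 genes, zeros included, was 0.41 in WT class 2 (libraries 0.12 to 0.83), 0.39 in WT class 4 (0.16 to 0.94) and 0.23 in WT class 8 (0.12 to 0.31). In TGA class 2 it was 0.89 (0.87 to 0.93), in TGA class 4 it was 0.43 (0.21 to 0.63) and in TGA class 8 it was 0.51 (0.33 to 0.85). In this level TGA class 2 lay above the other TGA groups without overlap, though only narrowly above the highest library of TGA class 8 (0.87 against 0.85). The range of TGA class 2 lay inside that of WT class 4, whose highest library is WT number 1. As differences with no test, the mean level was -0.28 in class 8 against class 2, -0.24 in class 4 against class 2 and -0.04 in class 8 against class 4, beside an SD of 0.23 between libraries of a group. In class 8 against class 2 it was -0.18 within WT and -0.38 within TGA, which differ by -0.20. In TGA against WT it was 0.27, beside an SD of 0.19 between number means of a genotype. These differences depend on single libraries. With the 4 libraries with the most genes above 0, named next, left out, the difference was 0.41 in TGA against WT and -0.17 in class 8 against class 2. In class 8 against class 4 it turned to 0.05, and to 0.04 without WT number 1. Within WT, class 8 against class 2 turned to 0.03 without the 4 libraries and was -0.05 without WT number 1 and -0.30 without WT number 2. The difference between the genotypes in class 8 against class 2 was then -0.40, -0.32 and -0.07, and it was -0.30 without TGA number 4. For class 8 against class 4, leaving out WT number 2, WT number 4 or TGA number 4 gave -0.09, -0.08 and -0.07, and leaving out TGA number 1 or number 3 gave -0.02 and -0.03.

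The libraries also differed in how many genes of any kind had a value, from 1624 to 15147. Only 4 libraries had over 7000 genes above 0: WT number 1 in class 2 (15147) and class 4 (14469), WT number 4 in class 2 (7570) and TGA number 3 in class 8 (9096). In these 4, the 158 ribosomal protein values above 0 had a median of 0.82 on the log2 scale, and in the other 20 libraries the 197 values above 0 had a median of 3.82. The corresponding medians over all genes were 0.60 and 3.29. Values above 0 were thus lower in the 4 libraries with the most genes above 0, for ribosomal protein genes as for all genes. Only 6 ribosomal protein genes were above 0 in the 4 libraries alone. Among the other 20 libraries, the 9 WT libraries had 2 to 7 ribosomal protein genes above 0 (median 4) and the 11 TGA libraries had 4 to 33 (median 10). These 9 WT libraries had 2071 to 4490 genes of any kind above 0 and the 11 TGA libraries had 1624 to 6468. Together these 9 WT libraries showed 27 different ribosomal protein genes and these 11 TGA libraries 54. Over all 12 libraries of each genotype the order was the other way, with 66 in WT and 62 in TGA. The same counts over all genes were not computed, so these have no background.

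**Figure D2:**
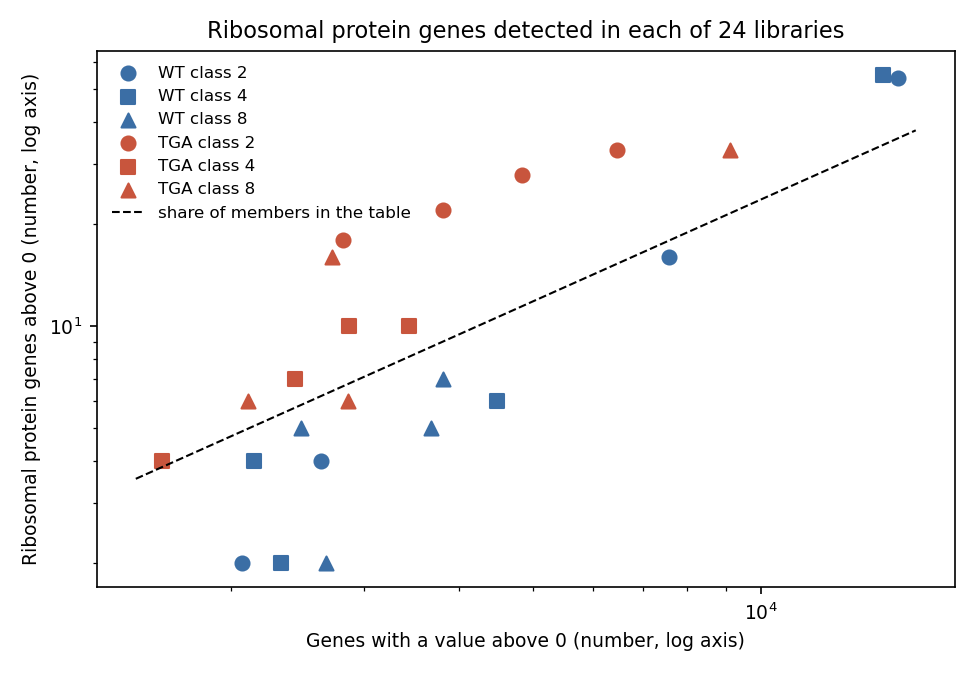
Ribosomal protein genes above 0 (vertical log axis, number) against all genes above 0 (horizontal log axis, number) in each of the 24 libraries; the dashed line is the 2.36 ribosomal protein symbols per 1000 symbols of the table. The TGA class 2 circles lie above the line at 18 to 33 genes, and the 2 WT libraries at 54 and 55 genes have 15147 and 14469 genes above 0.

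Set against all genes above 0 in the same library, ribosomal protein genes made up a larger share of the detected genes in TGA than in WT. In WT class 2 the share was 3.57, 0.966, 1.52 and 2.11 ribosomal protein genes per 1000 genes above 0 in numbers 1 to 4. In TGA class 2 it was 6.39, 5.77, 5.78 and 5.10, so that every TGA library was above every WT library of this class. In class 4 the share was 3.80, 1.34, 1.86 and 0.858 in WT and 2.88, 2.46, 2.91 and 3.49 in TGA, and the highest value was that of WT number 1. In class 8 it was 2.02, 1.84, 0.748 and 1.36 in WT and 2.84, 2.10, 3.63 and 5.89 in TGA, which did not overlap, with the nearest libraries at 2.02 and 2.10. Averaged over the 3 libraries of a number, the share was 3.13, 1.38, 1.38 and 1.44 per 1000 in WT numbers 1 to 4 and 4.04, 3.45, 4.10 and 4.83 in TGA numbers 1 to 4. The mean was 1.83 ± 0.864 in WT and 4.10 ± 0.566 in TGA (SD, n = 4 numbers each), and the lowest TGA number was above the highest WT number, which is WT number 1. In the 20 libraries with fewer than 7000 genes above 0, the share was 0.748 to 2.02 in WT (median 1.36) and 2.10 to 6.39 in TGA (median 3.49). No p is given for this share, which is a score over genes chosen as a group.

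**Figure D3:**
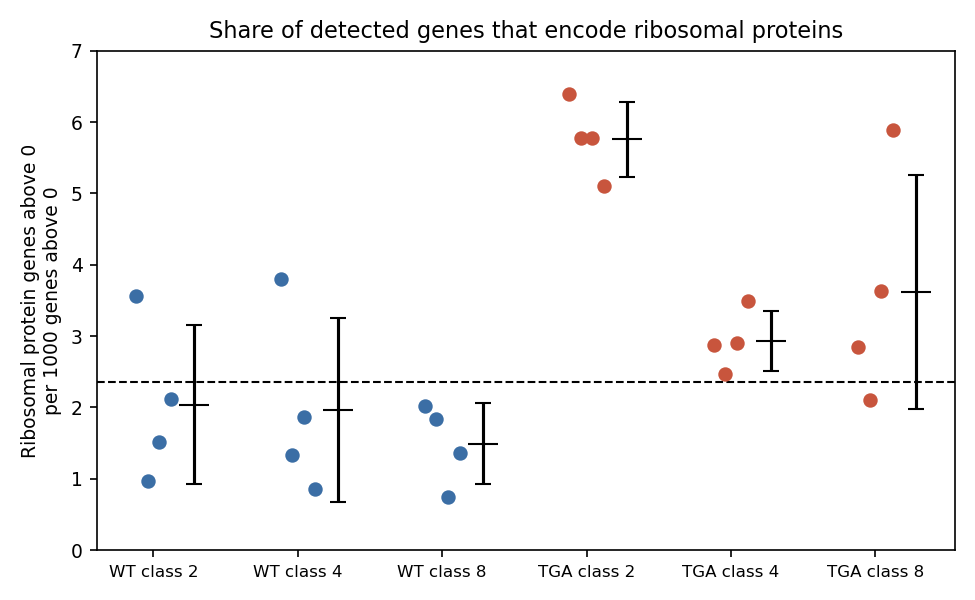
Ribosomal protein genes above 0 per 1000 genes above 0 (vertical axis from 0), with 1 point per library in the 6 groups, the mean as a horizontal tick and the SD as bars (n = 4); the dashed line is the 2.36 per 1000 of the table. The TGA class 2 libraries lie between 5.10 and 6.39, above all WT libraries.

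Within TGA, class 2 was also apart from class 4. The share was 5.10 to 6.39 per 1000 in class 2 and 2.46 to 3.49 in class 4, and class 8, at 2.10 to 5.89, overlapped both. In WT the 3 classes overlapped, at 0.966 to 3.57, 0.858 to 3.80 and 0.748 to 2.02. All 4 TGA class 2 libraries had values for 6 ribosomal protein genes: Rpsa, the stalk genes Rplp1 and Rplp2, Rpl13, Rpl13a and Rps15. A further 9 genes were above 0 in 3 of these 4 libraries. Rpsa was above 0 in all 4 libraries of TGA class 8, and no ribosomal protein gene was above 0 in all 4 libraries of any other group. The share of all genes above 0 in all 4 libraries of a group was not computed, so these counts have no background. Genes of any kind above 0 numbered 2816 to 6468 in TGA class 2, 1624 to 3440 in TGA class 4 and 2110 to 9096 in TGA class 8.

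Hepatocyte markers had higher values in TGA as well. The 10 markers examined were all above 0 in some library, and of these Apoa1 and Trf, which encode apolipoprotein A-I and transferrin, were above 0 in all 24 libraries. Alb, the albumin gene, was above 0 in 7 of 12 WT and 12 of 12 TGA libraries. Hepatocyte markers made up 1.25, 1.17 and 1.21 per 1000 genes above 0 in WT class 2, 4 and 8 and 2.29, 2.09 and 2.05 in TGA class 2, 4 and 8. In TGA against WT all 10 had higher values (against 54.7% of all tested genes) and 3 passed the limma test (Alb, Apoa1 and Trf), against 0.492% of all tested genes. In class 8 against class 2 all 10 had lower values (against 56.1%), with 0 passing in limma and 4 lower at an unadjusted p under 0.05 (against 6.07%). The summed level of the 10 markers per library was 28.6 to 73.2 in WT class 2, 19.0 to 70.8 in WT class 4 and 19.4 to 41.6 in WT class 8 on the log2 scale. It was 68.4 to 79.7 in TGA class 2, 34.4 to 54.4 in TGA class 4 and 35.4 to 69.5 in TGA class 8. Endothelial markers made up 0.425, 0.478 and 0.298 per 1000 genes above 0 in WT class 2, 4 and 8. The share was 0.283, 0.190 and 0.228 in the same classes of TGA. Of the 3 tested, 1 was higher and 2 were lower in TGA against WT, with a median difference of -0.65. None of them passed in limma (against 0.492% of all tested genes). At an unadjusted p under 0.05, 0 were higher (against 3.65%) and 0 were lower (against 5.23%). Stellate cell markers had on average 2.25, 2.0 and 1.25 of 9 genes above 0 in WT class 2, 4 and 8 and 0.25, 1.0 and 1.25 in TGA. Cholangiocyte markers had 1.5, 1.0 and 0.75 of 6 in WT and 0.75, 0.75 and 1.5 in TGA. Macrophage markers had 1.0, 0.75 and 1.25 of 10 in WT and 0, 0.5 and 0.75 in TGA, and lymphocyte markers 1.5, 1.25 and 0.25 of 10 in WT and 0.25, 0.75 and 0.75 in TGA. Per 1000 genes above 0, stellate cell markers made up 0.198, 0.404 and 0.389 in WT and 0.0516, 0.380 and 0.2665 in TGA. Cholangiocyte markers made up 0.220, 0.0691 and 0.202 in WT and 0.166, 0.248 and 0.320 in TGA. For macrophage markers the share was 0.144, 0.0518 and 0.442 in WT and 0, 0.241 and 0.0825 in TGA. For lymphocyte markers the share was 0.194, 0.125 and 0.068 in WT and 0.0656, 0.263 and 0.0825 in TGA. Neutrophil and erythroid markers had at most 2 of 7 and 1 of 5 above 0 in any library. Their part in the ribosomal protein values was not tested, and in bulk RNA fewer cells of a type and less RNA per cell cannot be told apart.

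For tests of single genes, limma was fitted to the 4875 genes that reached a natural log value of 1 in 4 or more libraries, and p-values were adjusted over all of them. Of the 85 ribosomal protein genes 21 passed this filter (24.7%, against 13.6% of all symbols), 16 of the large and 5 of the small subunit. A gene that passed because of its values in 1 group had to differ, so the counts and medians over the 21 are descriptions and speak for no direction of the family. The other 64 genes were not tested.

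In TGA against WT, compared as means of 4 numbers each, 0 of the 21 passed an adjusted p of 0.05 in limma, where 0.492% of all tested genes did. At an unadjusted p under 0.05, 2 of the 21 were higher (9.52%, against 3.65% of all tested genes) and 0 were lower (0%, against 5.23%). The log2 difference was above 0 for 17 of the 21 (81%, against 54.7% of all tested genes) and below it for 4, with a median of 1.01, and the median of all 4875 genes was 0.11. Rpsa, Rpl8 and Rplp1 had the smallest p. The next paragraphs give their values with those of the other genes by role.

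Rpsa had the most values of the family. In WT class 2 its log2 value was 6.70, 0, 6.71 and 3.42 in numbers 1 to 4, in WT class 4 it was 7.29, 3.02, 0 and 6.42, and in WT class 8 it was 0 in all 4 libraries. In TGA class 2 it was 4.16, 6.42, 7.02 and 6.87, in TGA class 4 it was 0, 6.62, 6.73 and 7.98, and in TGA class 8 it was 6.06, 6.94, 6.81 and 6.15. Rpsa was thus above 0 in 6 of 12 WT libraries and 11 of 12 TGA libraries, and the genotypes did not overlap in class 8 alone. Over all classes Rpsa was higher in TGA by 3.18 on the log2 scale (SE 1.09), with an unadjusted p of 0.00408 and an adjusted p of 0.279 in limma. Without WT number 1 the adjusted p was 0.0465, and on the 20 libraries below 7000 detected genes it was 0.0354.

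**Figure D4:**
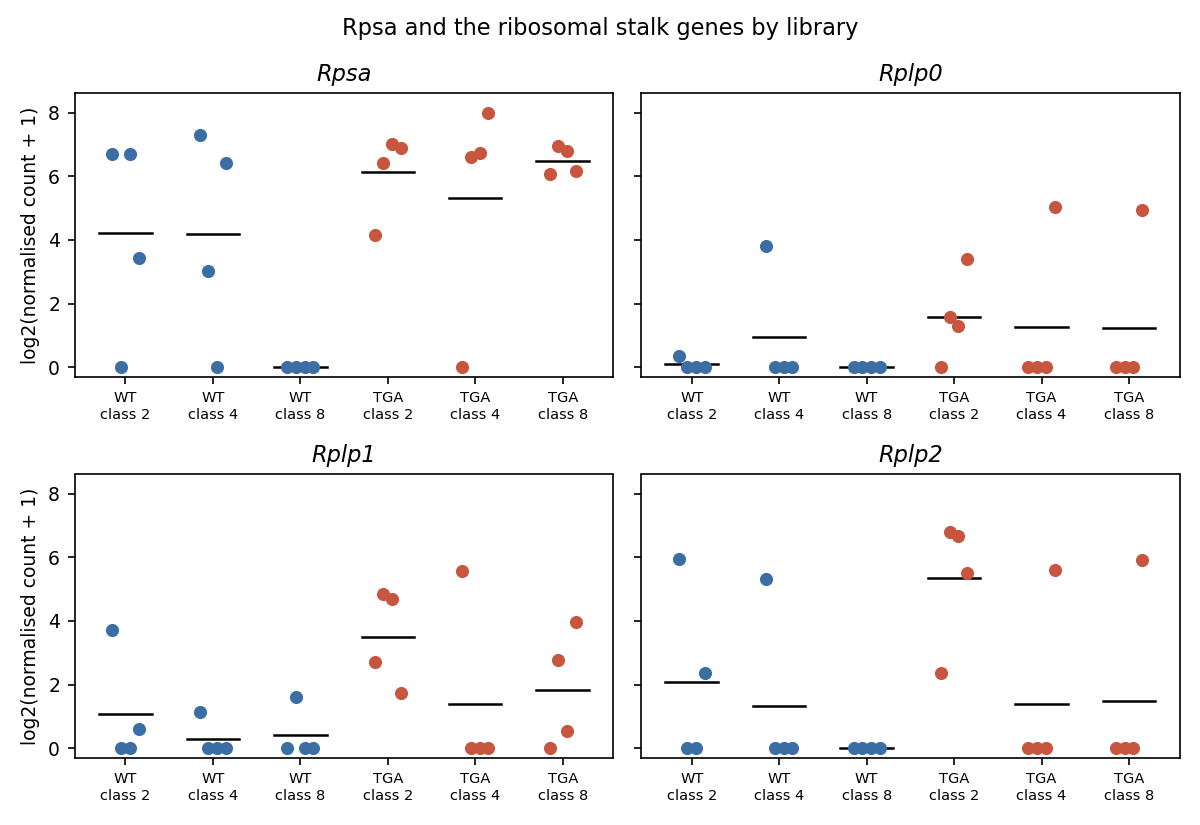
log2(normalised count + 1) of Rpsa and of the stalk genes Rplp0, Rplp1 and Rplp2 in the 6 groups, with 1 point per library and the group mean as a line (WT blue, TGA red). Rpsa is listed at 0 in all 4 WT class 8 libraries and lies between 6.06 and 6.94 in TGA class 8, and Rplp2 is above 0 in all 4 TGA class 2 libraries.

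Much of the Rpsa mRNA is repeated elsewhere in the genome, and a pair of stretches as long as a read is shown as an example. Of the 811 stretches of 75 bases in its coding sequence, 77 occur in no other annotated gene of GRCm38, and over its whole transcript 48.5% of such stretches are shared with 20 other genes. The first stretch below is bases 603 to 677 of the coding sequence and is found letter for letter in 9 other genes. The second is bases 136 to 210 and is found in none, and both are written in lower case throughout since all bases count.
Rpsa, shared: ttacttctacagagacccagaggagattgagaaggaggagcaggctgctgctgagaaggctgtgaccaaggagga
Rpsa, unique: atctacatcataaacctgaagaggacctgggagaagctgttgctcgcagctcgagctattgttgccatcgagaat
How the deposited values treat a read of the first kind is not given in the sources used here, so the level of Rpsa is uncertain.

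The stalk is the flexible arm of the large subunit that recruits translation factors, with Rplp0 at its base and Rplp1 and Rplp2 bound to it. Rplp1 in WT was 3.70, 0, 0 and 0.60 in class 2, 1.14, 0, 0 and 0 in class 4, and 0, 1.62, 0 and 0 in class 8. In TGA it was 2.71, 4.85, 4.69 and 1.72 in class 2, 5.58, 0, 0 and 0 in class 4, and 0, 2.79, 0.53 and 3.97 in class 8. It was the single one of the 21 genes whose 4 number means in TGA all lay above those in WT (4.76%, against 0.944% of all tested genes); for 0 of the 21 did they all lie below (0%, against 3.92%). The difference was 1.65 (SE 0.85, adjusted p = 0.555 in limma). Rplp2 was 5.95, 0, 0 and 2.36 in WT class 2 and 2.37, 6.80, 6.66 and 5.51 in TGA class 2. Outside class 2 it was above 0 in 3 libraries: WT number 1 in class 4 (5.30), TGA number 4 in class 4 (5.61) and TGA number 4 in class 8 (5.90). Rplp0 was above 0 in 2 WT libraries, at 0.37 and 3.81 in number 1 of class 2 and class 4, and in 5 TGA libraries, at 1.57, 1.30 and 3.41 in class 2, 5.03 in class 4 and 4.95 in class 8. TGA class 2 was thus the group with the most libraries above 0 for each of the 3 stalk genes.

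Among the other large-subunit proteins, Rpl8 was above 0 in 2 of 12 WT libraries, both of number 1 (4.92 in class 2 and 3.57 in class 4). It was above 0 in 8 of 12 TGA libraries, at 2.60, 6.18, 0 and 2.25 in class 2, 6.15, 0, 5.37 and 0 in class 4 and 0, 6.02, 0.50 and 2.29 in class 8. The difference was 1.91 (SE 0.90, unadjusted p = 0.0352, adjusted p = 0.520 in limma), and only 4.89% of the stretches of 75 bases in its transcript are shared with another gene. Rpl13a was above 0 in 3 WT libraries (4.82 and 4.71 in class 2, 6.01 in class 4) and 7 TGA libraries, with 5.81, 5.71, 1.61 and 3.68 in class 2, 6.32 in 1 library of class 4, and 4.05 and 7.34 in class 8. Rpl13 in TGA was 5.61, 3.90, 1.16 and 4.17 in class 2, and it was above 0 in number 4 alone of class 4 (5.81) and class 8 (4.39). In WT it was above 0 in 1 library of each class, at 1.72, 4.30 and 5.55 in class 2, 4 and 8. Rpl7 was above 0 in 2 WT and 5 TGA libraries. Rpl41, which encodes the shortest ribosomal protein, went the other way, with 6 of 12 WT libraries and 4 of 12 TGA libraries above 0. None of these 5 passed the adjusted threshold in any comparison.

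Of the small subunit, Rps15 was 4.46, 0, 0 and 0 in WT class 2 and 4.43, 3.72, 6.01 and 5.78 in TGA class 2. In the other classes it was above 0 in WT number 1 and number 3 of class 4 (1.46 and 6.77) and in TGA number 2 of class 8 (6.43). Rps16 was above 0 in 4 WT and 5 TGA libraries. Rps19, mutated in Diamond-Blackfan anaemia, was above 0 in 5 WT libraries (1.91 in class 2, 4.02, 6.23 and 6.95 in class 4, 6.33 in class 8) and 4 TGA libraries (4.29 and 4.33 in class 2, 4.55 in class 4, 5.07 in class 8). Rps6, the substrate of the S6 kinases, was above 0 in 3 libraries: WT number 1 class 2 (1.77), TGA number 1 class 2 (4.63) and TGA number 1 class 8 (5.86). It was too rarely above 0 to be tested.

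Rpl5 and Rpl11 bind the 5S rRNA and, outside the ribosome, the p53 regulator Mdm2. Rpl5 was above 0 in 5 libraries, 2 of WT and 3 of TGA, with a highest value of 3.75. Rpl11 was above 0 in 3 WT and 3 TGA libraries, with a highest value of 4.31 in TGA number 4 of class 8. Neither passed the filter. Of the tissue-restricted or duplicate paralogs, Rpl3l, a muscle gene, was above 0 in 4 libraries, Rpl39l and Rpl7l1 in 3 each, Rpl22l1 in 2, and Rps27l, a p53 target, in 1 (4.34 in WT number 3 of class 8). Rpl10l and Rps4l were at 0 throughout, as were the widely expressed Rpl39 and Rpl3.

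Between classes, taken as the mean of both genotypes, 0 of the 21 genes passed the adjusted threshold in limma. In class 8 against class 2 the background was 0.0205% of all tested genes, and 3 of the 21 were lower at an unadjusted p under 0.05 (14.3%, against 6.07%), with 0 higher (0%, against 1.29%). Values were lower for 17 of the 21 (81%, against 56.1%), with a median difference of -0.71, beside -0.16 for all genes. In class 4 against class 2 the background was 0.308%, 3 of the 21 were lower at an unadjusted p under 0.05 (14.3%, against 10.5%) and 0 were higher (0%, against 3.14%). Values were lower for 15 of the 21 (71.4%, against 57.8%), and the median was -0.48, beside -0.23 for all genes. In class 8 against class 4 the background was 0%, 0 of the 21 were higher (against 3.69%) or lower (against 2.89%) at an unadjusted p under 0.05, and values were lower for 12 (57.1%, against 47.6%). The median was -0.12, beside 0.06. The comparisons with class 2 share its libraries and are not independent of each other.

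Rpl9, a large-subunit protein, had the smallest p in both comparisons with class 2. It passed the filter through class 2 libraries alone. Lower values outside class 2 were thus favoured by the filter, so its p and differences speak for no direction. Rpl9 was 1.98, 0, 0 and 3.78 in WT class 2 and 0, 4.34, 3.71 and 1.40 in TGA class 2. Outside class 2 it was above 0 in WT number 1 of class 4 (0.60) and TGA number 3 of class 8 (0.85). The log2 difference was -1.79 for class 8 (SE 0.63, adjusted p = 0.480 in limma) and -1.83 for class 4 (SE 0.63, adjusted p = 0.198). Of the stretches of 75 bases in its transcript, 84.2% are shared with another gene. Rplp2 differed by -2.97 in class 8 (SE 1.13, adjusted p = 0.482) and -2.34 in class 4 (SE 1.13, adjusted p = 0.351). Rps15 differed by -2.25 in class 8 (SE 1.04, adjusted p = 0.638). Rpl23a, with a single high value of 7.29 in WT number 4 of class 2, differed by -1.53 in class 4 (SE 0.74, adjusted p = 0.352). In class 8 against class 4 the smallest p belonged to Rpl21, at 1.27 (SE 0.77, adjusted p = 0.766).

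Within each genotype the comparison of class 8 with class 2 again passed 0 of the 21 genes in limma, with a background of 0% in WT and 0% in TGA. Values were lower for 15 of the 21 in WT (71.4%, against 56.5%) and 16 in TGA (76.2%, against 52.7%). In WT 0 were higher at an unadjusted p under 0.05 (against 2.15%), and 2 of the 21 were lower at an unadjusted p under 0.05 (9.52%, against 2.71%): Rpsa by -4.21 (SE 1.68, adjusted p = 0.929) and Rpl23a by -2.33 (SE 1.04, adjusted p = 0.947). In TGA 0 were higher (against 1.23%) and 3 were lower (14.3%, against 5.91%): Rplp2 by -3.86 (SE 1.59, adjusted p = 0.555), Rpl9 by -2.15 (SE 0.89, adjusted p = 0.563) and Rps15 by -3.38 (SE 1.47, adjusted p = 0.622). Of these, Rpl9 passed the filter through class 2 libraries alone. Whether the class difference itself differed between genotypes was tested as an interaction, which passed 0 of the 21 and 0% of all genes, with 0 of the 21 higher (against 1.6%) and 0 lower (against 2.46%) at an unadjusted p under 0.05. The smallest interaction p was that of Rpsa, at 4.58 (SE 2.38, unadjusted p = 0.0601, adjusted p = 0.999), followed by Rpl13 at -3.57 (SE 2.11, adjusted p = 0.999).

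**Figure D5:**
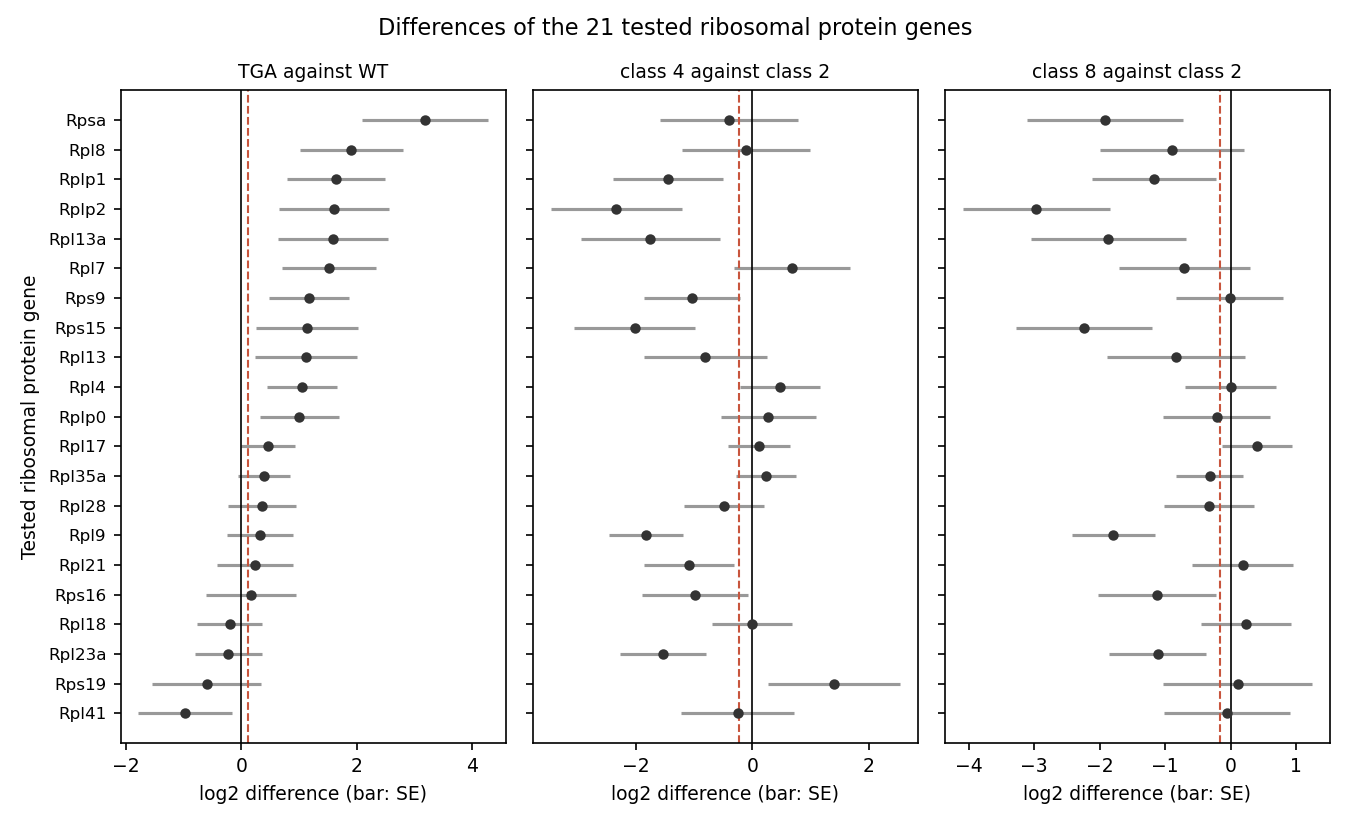
log2 differences of the 21 tested ribosomal protein genes (points) with SE (bars) for TGA against WT, class 4 against class 2 and class 8 against class 2, with genes in the order of the first panel; the black line is 0 and the red dashed line the median of all 4875 tested genes (0.11, -0.23 and -0.16). Rpsa is the farthest gene from 0 in the first panel at 3.18, and Rplp2 in the other panels at -2.34 and -2.97.

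Other genes of the translation machinery are given from fixed lists. Among all tested genes, 0.492% passed in limma in TGA against WT, 0.308% in class 4 against class 2 and 0.0205% in class 8 against class 2. In TGA against WT, 54.7% of all tested genes had higher values and 3.65% were higher at an unadjusted p under 0.05, and the median of all was 0.11. Of 40 translation factors and other genes of the same mRNA class in the table, 17 were tested and 0 passed in TGA against WT, class 4 against class 2 or class 8 against class 2. In TGA against WT, 12 of the 17 had higher values, with a median of 0.62, and 2 had an unadjusted p under 0.05: Eef2, the elongation factor that moves the ribosome along the mRNA (3.50, SE 1.06, adjusted p = 0.138 in limma), and Tpt1 (3.04, SE 1.09, adjusted p = 0.309). In class 4 against class 2, 4 of the 17 were lower at an unadjusted p under 0.05 (against 10.5% of all tested genes). The median was -1.17, beside -0.23 for all genes. In class 8 against class 2, 0 of the 17 were lower (against 6.07%), with a median of -0.95, beside -0.16 for all genes. These genes made up 2.42, 2.37 and 2.80 per 1000 genes above 0 in WT class 2, 4 and 8 and 3.88, 3.66 and 4.09 in TGA. Of 72 genes of ribosome assembly and rRNA synthesis, 22 were tested, and Bms1, a GTPase of small-subunit assembly, fell in class 4 against class 2 (-4.61, SE 1.08, adjusted p = 0.0390 in limma), where 0.308% of all tested genes passed. None of the 22 passed in TGA against WT or in class 8 against class 2, and in TGA against WT 14 of the 22 had higher values, 3 of them at an unadjusted p under 0.05, with a median of 0.08. Of 16 upstream regulators such as Mtor, Larp1 and Myc, 8 were tested and 0 passed in those comparisons, with a median of -0.29 in TGA against WT. Of 78 mitochondrial ribosomal protein genes, 52 were above 0 in some library and 6 were tested, of which 0 passed, and in TGA against WT 5 of the 6 had higher values, with a median of 0.95. Mitochondrial ribosomal proteins made up 1.36, 1.03 and 0.817 per 1000 genes above 0 in WT class 2, 4 and 8 and 2.65, 1.36 and 1.51 in TGA. The share of the assembly and rRNA synthesis genes was 3.48, 2.98 and 2.73 in WT and 4.11, 2.99 and 4.21 in TGA. That of the upstream regulators was 1.31, 1.21 and 1.22 in WT and 1.13, 1.53 and 1.38 in TGA, so it was lower in TGA in class 2.

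Finally, the family was described by features of its transcripts in GENCODE, which had a transcript for 83 of the 85 genes. The median coding length was 369 bases for genes listed at 0 in every library, 420 for those above 0 in 1 to 3 libraries, 582 for 4 to 7 libraries and 558 for 8 or more. Across the 83 genes Spearman's rho between coding length and the number of libraries above 0 was 0.32, as a description over genes that share the same libraries. The median share of stretches of 75 bases found in another gene was 57.5%, 52.9%, 49.7% and 47.0% in the same order of genes, with a rho of -0.16 across the 83. In all, 722 other genes held such a stretch, 680 of them annotated as pseudogenes. Only 65 of the 722 are symbols of the deposited table, and 29 of these were above 0 in a library. Of the 12 pseudogene symbols of the table named after ribosomal proteins, 6 were above 0 in some library, at most 4 in any library.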

How the data were processed

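The deposited table holds 24 columns, 1 per library, and each column was matched to a sample by its title. The values are natural log values, which the authors did not describe in the labels; their form points to a quantile-normalised count plus 1, with the values of several transcripts averaged per symbol. In TGA number 2 class 4, for example, 218 genes share the most frequent log2 value of 4.44, and 34 others lie at 2.22, which is that value divided by 2. The submitters' processing notes name TopHat, edgeR and mm9, with no versions. Read depth is not given in the sources used here, so no counting interval can be given. The number of genes above 0 is given for each library, and its relation to depth was not tested. The log2 values were obtained from the natural log values by a change of base.

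limma 3.58.1 in R 4.3.3 (lmFit and eBayes with a trend) was fitted over the genes that reached a natural log value of 1 in 4 or more libraries, with Benjamini-Hochberg adjustment and a threshold of 0.05. Classes were compared over 24 libraries with 1 mean per group, and genotypes after the 3 libraries sharing genotype and number were averaged. The fit was also run on simulated normal values in which some genes were shifted. These lack the many zeros of the deposited values, so that run does not show how the p-values behave here. Genes were named by rule: the 10 above 0 in the most libraries, the 3 smallest p in each comparison, set roles and paralogs, and all listed at 0. 1 gene of the family is not reported here by name. The genes and lists were chosen with earlier results of these data known. Alternatives were filters, a pseudocount of 10, a covariate, a replicate block and left-out libraries. All 85 symbols matched GENCODE and RefSeq names. Transcript features are from GRCm38 (GENCODE vM21) and start sites from RefSeq, not from the build of the deposited table, so no coordinates of the table are printed.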

Additional observations from a re-analysis of the deposited data

Results flagged for a closer look

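In groups of 4 values, a highest or lowest value was marked where its gap to the nearest other took a larger part of the group's range than Dixon's critical value allows, which chance does in about 1 in 20 groups. For single genes, 38 values of named genes and groups were checked and 63 with 3 of 4 libraries at 0 were not.

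WT number 1 accounted for 6 of the 9 marks. It had 55 ribosomal protein genes above 0 in class 4 and a mean over its 3 libraries of 38.0. Its mean log2 level over all 85 genes was 0.94 in class 4 and 0.68 over its 3 libraries, and its share was 3.13 ribosomal protein genes per 1000 genes above 0. Its value of Rplp1 in class 2 was 3.70. This number holds the 2 libraries with the most genes above 0 (15147 and 14469).

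The other marks were single values. The mean level over all 85 genes in TGA number 4 of class 2 was 0.93, beside a lowest value of 0.87 in the same group. Rpl7l1 was 5.20 in WT number 3 of class 4, beside a value of 0.31 in WT number 1. Rpsa was listed at 0 in TGA number 1 of class 4, beside 6.62 to 7.98 in the others.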

How the results depend on the processing

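Of 166 alternative values for the 14 results, 157 either kept a count of called genes or moved a mean level by less than 1 SD between replicates. Within that SD, 3 mean levels changed sign: class 8 against class 2 of WT (0.03 without the libraries with over 7000 genes above 0) and class 8 against class 4 (0.05 without those libraries and 0.04 without WT replicate 1). The number of ribosomal protein genes passing the limma test stayed at 0 under the alternatives run in 6 comparisons. In TGA against WT it became 1 (Rpsa) without the libraries with over 7000 genes above 0, and ranged from 0 to 1 when each replicate was left out, with the 1 without WT number 1. Taking the mean log2 level over the 21 tested genes in place of all 85, which keeps the genes with more values, gave -0.79 in class 8 against class 2, -0.61 in class 4 against class 2, -0.57 in class 8 against class 2 of WT, -1.02 in the same comparison of TGA, -0.45 for the interaction and 0.80 in TGA against WT. A pseudocount of 10 gave -0.11 in class 8 against class 2 of TGA, -0.08 in class 8 against class 2, -0.06 in class 4 against class 2 and for the interaction, -0.04 in class 8 against class 2 of WT, -0.02 in class 8 against class 4 and 0.11 in TGA against WT.

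With the replicate number as a block, 0 ribosomal protein genes passed in each of the 7 comparisons, with a smallest adjusted p in limma of 0.184 (Rpl9, class 4 against class 2). Rpl9 passed the filter through class 2 libraries alone. The numbers were not taken as pairs: the correlation of deviations between libraries of 1 genotype and number was over 0.1 in 2 of 24 pairs (median 0.03), and across genotypes in 0 of 12. Read depth is unknown, and 64 of 85 genes reached a natural log value of 1 in too few libraries to be tested.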
